A study of Homo sapiens with 6 samples.

Results

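The HIPK, CLK and SRPK kinases and PRPF4B are the relatives of the DYRK kinases considered here, and their transcripts were followed in T98G cells depleted of DYRK1A. The members were the genes HIPK1, HIPK2, HIPK3, CLK1, CLK2, CLK3, CLK4, PRPF4B, SRPK1 and SRPK2, chosen by name. They are 10 of the 23026 genes in the deposited normalized table, and all 10 were among the 9697 genes that passed the filter on expression. T98G is an established human glioblastoma line. Cells were infected with virus for a control short hairpin RNA (shControl, 3 libraries) or for a short hairpin RNA against DYRK1A (shDYRK1A, 3 libraries). Both groups were selected with puromycin, and both received the same number of Drosophila Kc167 cells, whose RNA served to set the scale. Each library is named 1A, 1B or 1C. Nothing in the labels says that the libraries of a group came from separate cultures. The study's methods state in general terms that experiments were repeated independently at least 3 times, without naming these libraries. The p-values therefore measure the spread between these libraries, which may be technical. The labels name a single short hairpin RNA per group.

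All of these enzymes belong, with the DYRKs, to the CMGC group of protein kinases, which also holds the cyclin-dependent kinases, the MAP kinases, GSK3 and casein kinase 2. The SRPKs phosphorylate the arginine- and serine-rich (RS) domains of splicing factors in the cytoplasm, a step that favours their import into the nucleus by transportin 3 (TNPO3). The CLKs phosphorylate the same kind of domain in the nucleus and release SR proteins from nuclear speckles. PRPF4B phosphorylates proteins of the U4/U6.U5 tri-snRNP, a building block of the spliceosome. The HIPKs are nuclear kinases named after homeodomain partners, and HIPK2 is best known for phosphorylating p53 after severe DNA damage.

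The libraries held 33708297 to 42154438 counts in genes, and the size factors read from the deposited table ran from 0.821 to 1.03 in shControl and from 1.06 to 1.21 in shDYRK1A. Library shDYRK1A 1B stood apart, with the lowest depth and 15.6% of its reads unmapped, against 8.44 to 11.9% in the other 5. DYRK1A itself had normalized counts of 2227, 2234 and 1895 in shControl and 1482, 1056 and 1285 in shDYRK1A. Its log2 fold change was -0.73 ± 0.147 (SE), which is 0.602 of the control level (edgeR, adjusted p = 5.33e-06). That value is on the spike-in scale, where the median of all genes was -0.40. On that scale 11.9% of all genes had a fold change as low as that of DYRK1A or lower. Relative to the other human genes (TMM scaling, described below), DYRK1A fell by 0.34 ± 0.0594 (SE) on the log2 scale. This is 0.793 of the control level (edgeR, adjusted p = 0.000591). Of 7 markers of glioblastoma lines, VIM and CD44 were abundant and passed the filter, and the other 5 did not. VIM fell by 0.72 on the log2 scale (edgeR, adjusted p = 1.47e-07). In a fit without the filter CHI3L1 rose 2.32-fold (adjusted p = 8.68e-10), from 140 to 200 raw counts in shControl to 443 to 545 in shDYRK1A, and NES had 52 to 85 raw counts. The glial markers GFAP, SOX2 and S100B were at 0 to 4 raw counts in every library, and so were the leukocyte marker AIF1 and the neuronal marker RBFOX3, but MAP2, the 1 of 4 neuronal markers past the filter, was present. MAP2 fell by 1.64 on the log2 scale (adjusted p = 5.38e-23, edgeR). Whether these marker changes bear on the kinase values was not tested.

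On the spike-in scale, 6 of the 10 members were lower in shDYRK1A at an adjusted p below 0.05 (edgeR quasi-likelihood test), none was higher, and 4 did not pass. The 6 were SRPK1, PRPF4B, SRPK2, HIPK1, CLK2 and CLK3. Of all 9697 genes, 63.4% were lower and 1.08% were higher by the same rule, so that the members' count lies near the background. SRPK1 was the one member past a log2 fold change of -0.7, a limit that 14.3% of all genes passed, and no member was past 0.7, as were 0.278% of all genes. The median log2 fold change was -0.41 over the members and -0.40 over all genes. According to the study's methods, T98G cells were mixed with the fly cells in equal numbers per condition. From the counts alone, fewer RNA molecules per cell and fewer recovered cells cannot be told apart, and this holds for every spike-in value. The members are therefore described both on that scale and after TMM scaling, which sets the human genes of each library against each other. TMM moved the median of all genes from -0.40 to 0.00. After it, 2 members were lower (SRPK1 and PRPF4B), 3 were higher (CLK1, HIPK2 and CLK4) and 5 did not pass, where 28.6% of all genes were lower and 27.3% were higher.

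**Figure D1:**
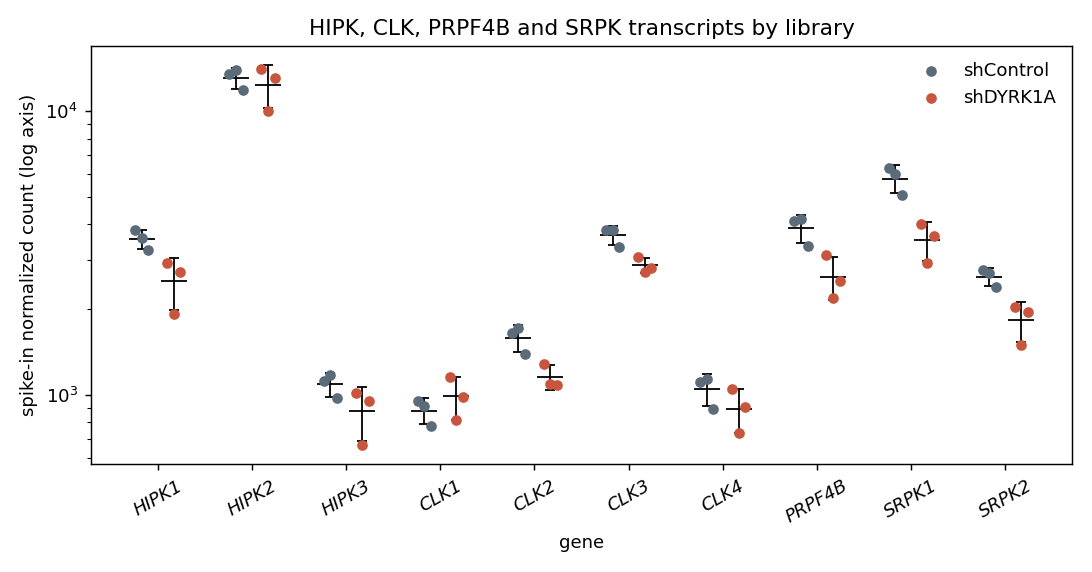
Spike-in normalized counts of the 10 genes (log axis) in the 3 shControl (grey) and 3 shDYRK1A (red) libraries; points are libraries, and bars are the mean ± SD. The groups do not overlap for 6 of the 10 genes, all lower in shDYRK1A, beside 63.6% of all 9697 genes. The groups overlap for HIPK2, HIPK3, CLK1 and CLK4.

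SRPK1 was the lowest of the 10 on both scales. It had normalized counts of 6319, 6018 and 5049 in shControl and of 4003, 2921 and 3630 in shDYRK1A. Every shDYRK1A library lay below every shControl library. SRPK1 fell by 0.72 ± 0.138 (SE) on the log2 scale, to 0.607 of its control level (edgeR, adjusted p = 1.73e-06). Relative to the other human genes it also fell. Its TMM-scaled level, as CPM (counts scaled to a common library size), was 133, 127 and 127 in shControl and 107, 94.95 and 107 in shDYRK1A, again without overlap. That difference was -0.32 ± 0.053 (SE) on the log2 scale (edgeR, adjusted p = 0.000378). Without shDYRK1A 1B the 2 differences of SRPK1 were -0.60 on the spike-in scale and -0.26 with TMM, and both still passed at an adjusted p below 0.05.

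SRPK2, its close relative, had normalized counts of 2760, 2689 and 2393 in shControl and of 2049, 1494 and 1953 in shDYRK1A. These groups did not overlap either. SRPK2 fell by 0.51 ± 0.143 (SE) on the log2 scale (edgeR, adjusted p = 0.00106), but its TMM difference of -0.12 did not pass (adjusted p = 0.141). Without shDYRK1A 1C the TMM difference was -0.17 and passed (adjusted p = 0.0458), and without shDYRK1A 1B it was -0.050. Groups without overlap and lower in shDYRK1A were found for 63.6% of all genes on the spike-in scale.

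The PRPF4B kinase of the tri-snRNP had normalized counts of 4100, 4162 and 3352 in shControl and of 3101, 2198 and 2530 in shDYRK1A. Its groups did not overlap. PRPF4B fell by 0.57 ± 0.141 (SE) on the log2 scale, to 0.674 of control (edgeR, adjusted p = 0.000211). With TMM it fell by 0.17 ± 0.0569 (SE, adjusted p = 0.0238), a call that was lost when any shControl library or shDYRK1A 1C was left out (adjusted p from 0.0501 to 0.077).

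The CLKs did not move as a block. CLK1 had normalized counts of 950, 913 and 774 in shControl and of 1158, 817 and 986 in shDYRK1A. The groups overlapped, because shDYRK1A 1B lay within the range of the controls. On this scale the log2 fold change of CLK1 was 0.17 ± 0.154 (SE) and did not pass (edgeR, adjusted p = 0.322). Leaving out shDYRK1A 1B gave 0.29, leaving out shControl 1C gave 0.083 and leaving out shDYRK1A 1A gave 0.038, and it passed in none of the fits with 1 library left out. Relative to the other human genes CLK1 rose. Its TMM-scaled level was 19.9, 19.2 and 19.4 CPM in shControl and 30.9, 26.6 and 29.1 in shDYRK1A, and every shDYRK1A library lay above every shControl library. The difference was 0.57 ± 0.0665 (SE) on the log2 scale (edgeR, adjusted p = 3.13e-05), and it was 0.51 to 0.62 whichever library was left out. On the spike-in scale 97.7% of all genes had a lower fold change than CLK1. CLK1 is known for transcripts that keep introns and stay in the nucleus, and a count per gene adds these to the spliced messenger RNA.

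CLK4, the CLK most like CLK1, had normalized counts of 1110, 1136 and 890 in shControl and of 1047, 732 and 903 in shDYRK1A, and the groups overlapped. Its log2 fold change was -0.22 ± 0.153 (SE, edgeR, adjusted p = 0.182). It ran from -0.10 without shDYRK1A 1B to -0.35 without shDYRK1A 1A, and it passed as lower without shControl 1C (-0.33, adjusted p = 0.0339). With TMM it was 0.18 ± 0.069 (SE, adjusted p = 0.0472). That call was lost in 5 of the 6 fits with 1 library left out, and it was kept without shDYRK1A 1B (adjusted p = 0.00274).

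CLK2 had normalized counts of 1650, 1724 and 1394 in shControl and of 1288, 1090 and 1085 in shDYRK1A, with no overlap. CLK2 fell by 0.46 ± 0.15 (SE) on the log2 scale (edgeR, adjusted p = 0.00498). The call was lost without shControl 1B (adjusted p = 0.0587) or without shDYRK1A 1C (adjusted p = 0.0689). CLK3 had 3827, 3817 and 3331 in shControl and 3061, 2721 and 2806 in shDYRK1A, also with no overlap. CLK3 fell by 0.35 ± 0.14 (SE) on the log2 scale (edgeR, adjusted p = 0.0208), a call that was lost in 4 of the 6 fits with 1 library left out: those without shControl 1A, shControl 1B, shDYRK1A 1B or shDYRK1A 1C (adjusted p from 0.0612 to 0.115). Both were near 0 with TMM, at -0.06 (adjusted p = 0.424) for CLK2 and 0.05 (adjusted p = 0.385) for CLK3. Exons of other genes on the opposite strand overlap 6.65% of the exon bases of CLK3, and the strand setting of the counting is not given in the sources used here.

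HIPK2 was the most abundant of the 10 by counts. The shControl libraries held 13534, 14021 and 11881 normalized counts of it, and the shDYRK1A libraries 14159, 10034 and 13104. The groups overlapped, and shDYRK1A 1A held the highest value of all. The log2 fold change of HIPK2 was -0.08 ± 0.132 (SE, edgeR, adjusted p = 0.586), and it turned to 0.05 without shDYRK1A 1B. Relative to the other human genes HIPK2 rose. Its TMM-scaled level was 284, 295 and 298 CPM in shControl and 378, 326 and 387 in shDYRK1A, without overlap. The difference was 0.32 ± 0.0604 (SE) on the log2 scale (edgeR, adjusted p = 0.000986), and it passed whichever library was left out. With TMM, the groups of 63.2% of all genes did not overlap in 1 direction or the other. Among the members this held for SRPK1, PRPF4B, CLK1 and HIPK2.

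HIPK1 had normalized counts of 3803, 3568 and 3251 in shControl and of 2915, 1922 and 2721 in shDYRK1A, with no overlap. HIPK1 fell by 0.49 ± 0.141 (SE) on the log2 scale (edgeR, adjusted p = 0.00145). Without shDYRK1A 1B the fold change was -0.33 and did not pass (adjusted p = 0.0536), and with TMM it was -0.10 (adjusted p = 0.322). The antisense gene HIPK1-AS1, which overlaps 3.24% of the exon bases of HIPK1, had 10, 17 and 10 raw counts in shControl and 36, 25 and 18 in shDYRK1A. These counts lie under the filter, and in a fit without it the difference of 0.80 ± 0.415 (SE, log2) did not pass (edgeR, adjusted p = 0.17). HIPK3 had 1122, 1177 and 971 normalized counts in shControl and 1014, 663 and 953 in shDYRK1A, and the groups overlapped. Its log2 fold change was -0.31 ± 0.153 (SE, edgeR, adjusted p = 0.0614), and it passed without shControl 1C (adjusted p = 0.0118) or without shDYRK1A 1A (adjusted p = 0.0187). With TMM it was 0.083 (adjusted p = 0.439), and it passed as higher without shDYRK1A 1B (0.19, adjusted p = 0.0103).

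**Figure D2:**
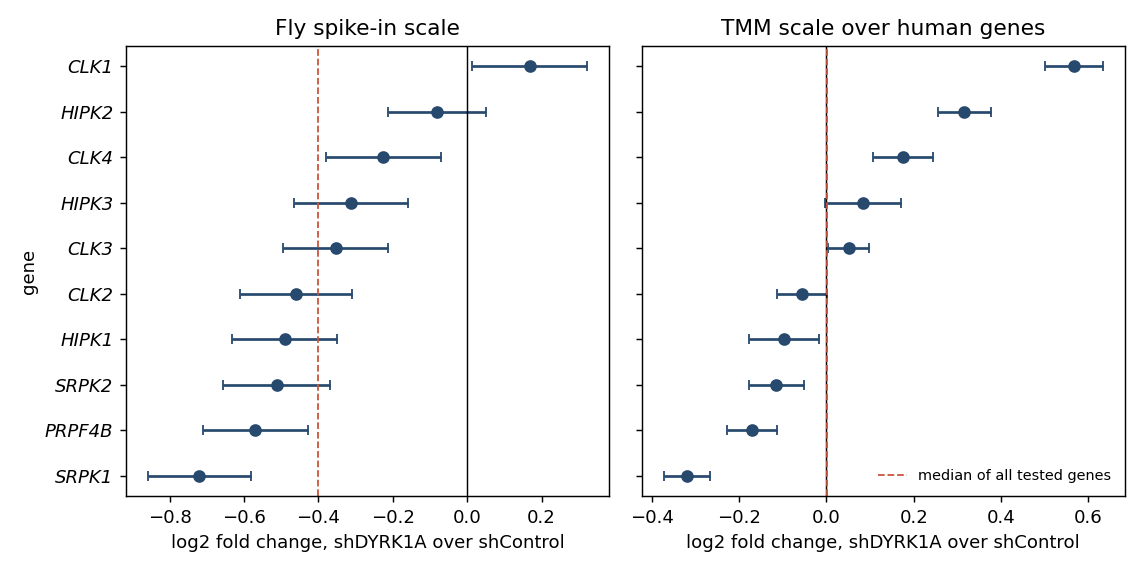
Log2 fold change of shDYRK1A over shControl (points) with its SE (bars) for the 10 genes, on the fly spike-in scale (left) and after TMM scaling over human genes (right); dashed lines are the medians of all 9697 genes, -0.40 and 0.00. SRPK1 is lowest on both scales, at -0.72 and -0.32, and CLK1 is highest on both, at 0.17 and 0.57.

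Ratios between 2 members within a library do not depend on the scaling. They were compared for 8 pairs of members with a two-sided exact permutation test over the 6 libraries. With 3 libraries against 3, the smallest p this exact test allows is 0.1. For 6 of the 8 pairs the libraries of both groups lay apart, and each of these 6 had the smallest possible p of 0.1 (0.133 after Benjamini-Hochberg adjustment over the 8 pairs, exact permutation test). Among all pairs of the 9697 genes, the groups did not overlap for 63.8%, so the count of 6 lies near the background. The largest shift of the 8 was in CLK1 over CLK2. This ratio of raw counts was 0.576, 0.530 and 0.555 in shControl and 0.899, 0.749 and 0.909 in shDYRK1A, a 1.53-fold difference between the mean log ratios. CLK1 over CLK4 was 0.855, 0.804 and 0.870 in shControl and 1.11, 1.12 and 1.09 in shDYRK1A. CLK4 thus had more raw counts than CLK1 in every shControl library and fewer in every shDYRK1A library. Raw counts also depend on the length of a gene. Per kilobase of exon, CLK1 lay above CLK4 in every library of both groups, with shControl means of 170 and 132.

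Within the HIPKs, HIPK1 over HIPK2 was 0.281, 0.254 and 0.274 in shControl and 0.206, 0.192 and 0.208 in shDYRK1A. HIPK3 over HIPK2 was also lower in every shDYRK1A library, by 0.24 in the mean log2 ratio, and HIPK1 over HIPK3 by 0.18. SRPK1 over SRPK2 was 2.29, 2.24 and 2.11 in shControl and 1.95, 1.95 and 1.86 in shDYRK1A. The groups overlapped for CLK2 over CLK3 and for PRPF4B over CLK2, and both had p = 0.2 in the exact permutation test.

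**Figure D3:**
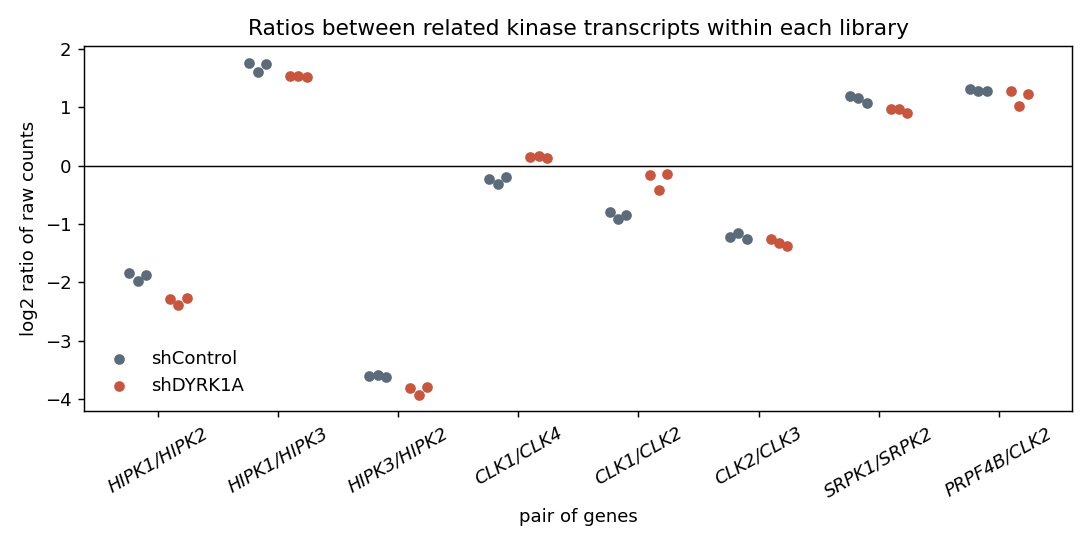
Log2 ratio of raw counts for 8 pairs of genes in each shControl (grey) and shDYRK1A (red) library. The groups do not overlap for 6 pairs. The ratio of CLK1 over CLK4, which is not set per length, crosses 0, from a mean of -0.25 to 0.14.

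As a share of the raw counts of all 10 members, HIPK2 took 34.5, 35.7 and 35.7% in shControl and 41.9, 40.8 and 42.7% in shDYRK1A. SRPK1 took 16.1, 15.3 and 15.2% in shControl and 11.8, 11.9 and 11.8% in shDYRK1A. The 95% Wilson interval of any of these shares is at most 1.18 percentage points wide, and it covers counting error only, since reads are not independent molecules. CLK1 took 2.36% ± 0.0559 (SD, n = 3) in shControl and 3.32% ± 0.106 in shDYRK1A. A share that grows lowers the others, so the shares are given as a description. The summed normalized count of the 10 was 39176, 39226 and 33286 in shControl and 33796, 24594 and 30670 in shDYRK1A, a log2 difference of -0.33 (exact permutation test, p = 0.2). In CPM of human gene counts the difference of the sum was 0.090 (exact permutation test, p = 0.4). Without HIPK2 the summed normalized counts no longer overlapped, with a log2 difference of -0.49 (exact permutation test, p = 0.1, the smallest possible). Of all single genes, 63.6% also lay apart and lower in shDYRK1A on the spike-in scale. In CPM the sum without HIPK2 overlapped, with a log2 difference of -0.06 (exact permutation test, p = 0.7).

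**Figure D4:**
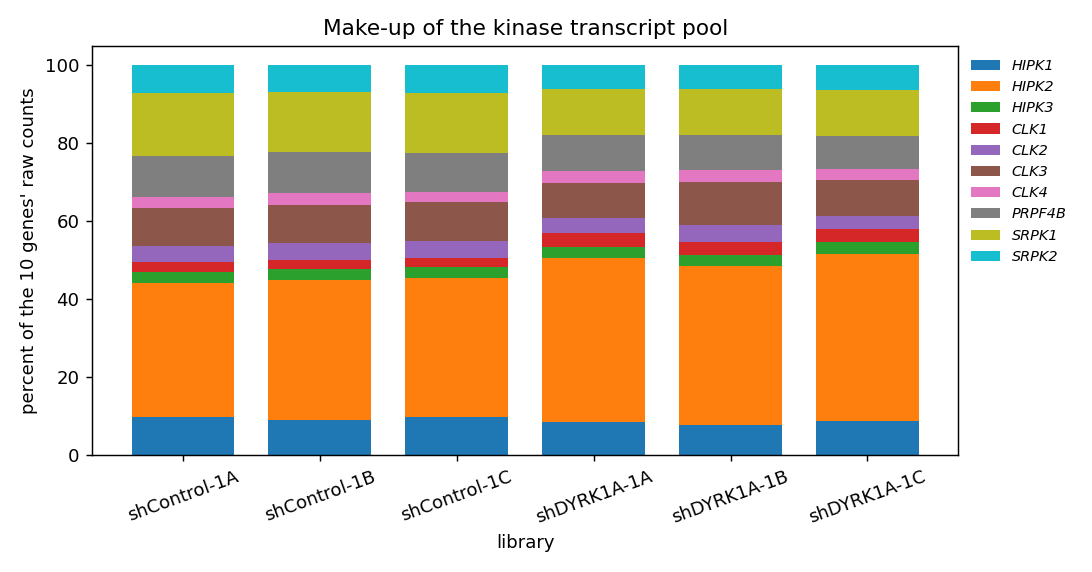
Share of each gene, in percent, of the raw counts of the 10 genes in each of the 6 libraries (stacked bars, to 100). The HIPK2 part is 34.5 to 35.7% in shControl and 40.8 to 42.7% in shDYRK1A, and the SRPK1 part 15.2 to 16.1% and 11.8 to 11.9%.

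Levels of different genes can be compared only per length. In normalized counts per kilobase of all annotated exons, the mean of the 3 shControl libraries was highest for SRPK1, at 866 ± 99.2 (SD, n = 3), and for HIPK2, at 853 ± 72.8. These 2 overlapped in their libraries. PRPF4B followed at 493 ± 57.4, then CLK2 at 433 ± 47.1, SRPK2 at 412 ± 30.7 and HIPK1 at 382 ± 29.9, each overlapping the next. CLK3 stood at 179 ± 13.9, CLK1 at 170 ± 17.9, HIPK3 at 137 ± 13.4 and CLK4 at 132 ± 17.1. In shDYRK1A the SRPK1 mean was 526 ± 82.1 per kilobase and the HIPK2 mean 807 ± 139.

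The order depends on the length used. The annotated exons of CLK3 add up to 20443 bases, but its principal transcript has 1846. Per kilobase of the principal transcript CLK3 was highest, at 1982 ± 154 in shControl (SD, n = 3), followed by SRPK1 at 1262 ± 145. HIPK3 was lowest on that length, at 147 ± 14.4.

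The profile over the 6 libraries gives another description of the members, as Pearson's r of log2 normalized counts. The libraries share 1 contrast and 1 set of size factors, so a high r is common. For SRPK1, 5081 genes had an r above 0.95, and RUNX2 was closest (r = 0.9998). For HIPK2 there were 104 such genes, with LIMCH1 closest (r = 0.994), and for CLK1 there were 42, with SSH2 closest (r = 0.995). The r between CLK1 and SRPK1 was -0.0078.

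The study connects DYRK1A with a palindromic promoter element, and the members' promoters were searched for it. The windows run from 250 bases before to 50 after each annotated start (RefSeq, GRCh38.p14), and 8 members have 17 of them. HIPK2 and PRPF4B are not among these 8. The element is shown because it is the sequence the study ties to DYRK1A on chromatin.
Element: TCTCGCGAGA
It was found in 149 of all 35116 windows (0.424%) and in none of the 17 member windows. With 1 mismatch allowed it was in 1.28% of all windows and again in no member window. With 2 mismatches allowed it was in 7.98% of all windows, and in 1 window each of HIPK1 and CLK3. The study graded matches to its motif by a p-value, so a site it would accept can be missed by this search.

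The 250 bases before a start of CLK1, CLK4 and SRPK1 are shown. CLK1 and SRPK1 are the 2 ends of the members' range. CLK4 is the relative whose raw count, not set per length, lay above that of CLK1 in shControl and below it in shDYRK1A. CLK1 has another annotated start, whose window overlaps the one shown. Capitals mark TGACG, a short core of the cyclic AMP response element, and GGGCGG, the GC box, each on either strand. All are on the minus strand and are written 5′ to 3′. CLK1 lies at chr2:200864659-200864908, CLK4 at chr5:178627051-178627300 and SRPK1 at chr6:35921099-35921348.
CLK1: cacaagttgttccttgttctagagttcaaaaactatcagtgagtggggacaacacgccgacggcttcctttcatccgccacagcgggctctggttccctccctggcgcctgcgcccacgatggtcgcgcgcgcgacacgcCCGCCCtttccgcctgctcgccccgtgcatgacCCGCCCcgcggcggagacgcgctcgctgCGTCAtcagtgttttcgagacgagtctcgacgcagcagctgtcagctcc
CLK4: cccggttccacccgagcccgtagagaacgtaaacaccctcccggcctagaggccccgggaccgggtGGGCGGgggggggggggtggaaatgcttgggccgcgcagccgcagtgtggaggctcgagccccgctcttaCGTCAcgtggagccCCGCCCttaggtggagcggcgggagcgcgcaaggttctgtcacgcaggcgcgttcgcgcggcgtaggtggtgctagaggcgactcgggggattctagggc
SRPK1: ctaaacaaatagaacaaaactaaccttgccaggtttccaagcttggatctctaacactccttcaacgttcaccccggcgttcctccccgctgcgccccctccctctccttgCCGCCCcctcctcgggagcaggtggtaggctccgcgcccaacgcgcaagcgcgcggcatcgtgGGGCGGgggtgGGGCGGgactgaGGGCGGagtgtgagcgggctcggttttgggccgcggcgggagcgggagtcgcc
The CLK1 and CLK4 stretches each hold 1 TGACG and 2 GGGCGG, and the SRPK1 stretch holds 4 GGGCGG and no TGACG. Of all windows, 24.6% hold TGACG and 45.0% hold GGGCGG, beside 7 and 10 of the 17 member windows. Counted per gene, 28.4% and 48.3% of all genes have at least 1 such window, beside 6 and 8 of the 8 members, which have up to 4 windows each. The windows of CLK1 overlap and hold the same TGACG and GGGCGG sites, which the count per window takes more than once. The 10 member windows with GGGCGG have 62.7 to 83.7% G and C, against a median of 58.7% over all windows. Over the same 17 windows, CCAAT was found in 1 (34.6% of all windows), the E-box CACGTG in 2 (7.26%) and TATAAA in 3 (11.5%). The E-box and TGACG share letters in the CLK4 stretch. These matches describe letters in the windows and no binding was measured here.

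The remaining genes of these families were near the limit of detection: HIPK4 and SRPK3 had 2 to 18 raw counts in each library. Among the DYRKs, DYRK2 fell by 0.67 on the log2 spike-in scale (edgeR, adjusted p = 0.000253) and DYRK1B rose by 0.65 (adjusted p = 0.000222). With TMM, DYRK2 fell by 0.27 (edgeR, adjusted p = 0.011) and DYRK1B rose by 1.06 (adjusted p = 1.68e-06). The DYRK2 call with TMM was lost without shControl 1C (-0.23, edgeR, adjusted p = 0.060). DYRK1B had 467, 576 and 424 normalized counts in shControl and 817, 739 and 751 in shDYRK1A. DYRK4 had a log2 fold change of -0.20 on the spike-in scale (edgeR, adjusted p = 0.272) and of 0.19 with TMM (adjusted p = 0.105). DYRK3 lay under the filter, at 343 to 446 normalized counts in shControl and 189 to 253 in shDYRK1A. In a fit without the filter DYRK3 fell by 0.89 on the log2 scale (edgeR, adjusted p = 1.1e-05).

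The substrates and partners of the members were taken as lists. For comparison, 63.4% of all genes were lower and 1.08% were higher on the spike-in scale. After TMM scaling, 28.6% of all genes were lower and 27.3% were higher. Of 13 SR and TRA2 splicing factors past the filter, 11 were lower on the spike-in scale, none was higher and 2 did not pass, with a median log2 fold change of -0.53 against -0.40 for all genes. The called values ran from -0.73 for SRSF10 (edgeR, adjusted p = 8.07e-07) to -0.30 for SRSF6 (adjusted p = 0.037). After TMM scaling, 7 of the 13 were lower, 3 were higher and 3 did not pass. Of 10 other proteins with RS domains or their importer, 9 were lower and 1 did not pass, with a median of -0.37, beside the 63.4% lower among all genes. After TMM scaling, 2 of these 10 were lower, 1 was higher and 7 did not pass (median 0.03). Among them LBR, the lamin B receptor and a known SRPK1 substrate, had 4812, 4723 and 4018 normalized counts in shControl and 1646, 1166 and 1469 in shDYRK1A. LBR fell by 1.66 ± 0.145 (SE) on the log2 scale (edgeR, adjusted p = 1.27e-27), and by 1.26 with TMM. The other genes of that list called lower ended at -0.31 for SRRM2, and TNPO3 was at -0.52 (adjusted p = 0.000534).

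Of the 15 tri-snRNP proteins, 12 were lower, none was higher and 3 did not pass, beside the 63.4% lower among all genes. Their median was -0.33. After TMM scaling, 2 of the 15 were lower, 3 were higher and 10 did not pass (median 0.07). On the spike-in scale the called values ran from -1.28 for PRPF4 (edgeR, adjusted p = 2.18e-16) to -0.30 for SNRNP200 (adjusted p = 0.0388). PRPF4 had 3277, 3241 and 2668 normalized counts in shControl and 1407, 1066 and 1314 in shDYRK1A, and it also fell with TMM, by 0.87. Of 14 HIPK partners and substrates, 7 were lower and 7 did not pass, with a median of -0.37, where 63.4% of all genes were lower. After TMM scaling, 5 of the 14 were lower, 4 were higher and 5 did not pass (median 0.04). On the spike-in scale the called values ran from -0.92 for WSB1 (edgeR, adjusted p = 1.36e-09), a ubiquitin ligase adaptor that targets HIPK2, to -0.41 for DAXX (adjusted p = 0.0071). Of the 32 other CMGC kinases past the filter, 23 were lower, none was higher and 9 did not pass, again beside 63.4% of all genes. Their median was -0.51. The lowest called value was -0.97 for CDK19 (edgeR, adjusted p = 5.85e-09). After TMM scaling, 14 of these 32 were lower, 8 were higher and 10 did not pass, beside 2, 3 and 5 of the 10 members. Of all genes, 28.6% were lower and 27.3% were higher on that scale.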

How the data were processed

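RNA-seq was measured in 6 T98G libraries, 3 per group, grouped by their titles. The authors deposited raw counts per gene for each library, and the deposited normalized signal is those counts over 1 size factor per library, obtained from fly reads according to the study's methods. The submitters' processing notes name STAR, DESeq2, hg38 and dm3. Another table holds the authors' DESeq2 fold changes and p-values and was not used. Coordinates of 95.8% of the 23026 genes equalled GENCODE v29.

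Those size factors entered edgeR 4.0.16 (R 4.3.3; glmQLFit with robust estimation, then glmQLFTest), run on the raw counts, over the 9697 genes whose mean normalized count exceeded 10 CPM. p-values were Benjamini-Hochberg adjusted over them. Calls needed an adjusted p below 0.05, or also a log2 fold change beyond 0.7. Alternatives were TMM, median-of-ratios, other filters, DESeq2 1.42.0, a replicate block and each library left out. The fit was tested on simulated data. Pair ratios and sums used exact permutation tests (scipy 1.17.1). The unmapped, multimapping, feature-less and ambiguous summary lines stayed out of library sizes: 8.44 to 15.6% of reads were unmapped. Per-sample columns matching no sample numbered 0. Members and lists were chosen with earlier results of these data known. Named were all members, the DYRKs, HIPK4, SRPK3, each list's lowest and highest called gene (1 of them is not reported here), LBR, TNPO3, antisense and pseudogene rows, and the nearest profile for the 3 members farthest from the median. The promoter motifs other than the palindrome, and the promoters shown, were chosen after values were seen. Protein sequences were not used here.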

Additional observations from a re-analysis of the deposited data

How the results depend on the processing

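The spike-in and human-gene scalings differ most. SRPK1 was the 1 member called lower beyond -0.7, and none was called with TMM or median-of-ratios scaling (0 each). That count was 6 at an adjusted p below 0.05 alone, and 0 to 2 when a library was left out: 0 without shDYRK1A 1B or either of shControl 1A and 1B, and 2 without shDYRK1A 1A. The count of members called higher beyond 0.7 was 0 under all alternatives run. Over all genes, 1386 were called lower and 27 higher. These counts were 187 and 121 with TMM, 184 and 125 with median-of-ratios, 2492 and 229 with filterByExpr, 2468 and 224 without a filter, 6145 and 105 at an adjusted p alone, and 908 to 2093 and 16 to 32 with a library left out (lower calls: 908 without shDYRK1A 1B, 2083 without shDYRK1A 1A and 2093 without shControl 1C; higher calls: 16 without shControl 1C). Positive log2 fold changes replaced negative ones with TMM and median-of-ratios for HIPK2 (0.32 in both), HIPK3 (0.083 and 0.087), CLK3 (0.051 and 0.054) and CLK4 (0.18 in both), and for HIPK2 without shDYRK1A 1B (0.052; its range with 1 library left out was -0.18 to 0.052). With TMM, HIPK1 turned from -0.10 to 0.0055 without shDYRK1A 1B (range with a library left out -0.16 to 0.0055). The sum of the 10 members turned from -0.33 to 0.090 in CPM. With a library left out, that sum ranged from -0.43 to -0.21 on the spike-in scale. Without HIPK2 the sum kept its sign, at -0.49 on the spike-in scale and -0.06 in CPM. The CPM sum without HIPK2 was an alternative chosen after seeing the data. The cause of these changes with the scale was not tested. DESeq2 and both other filters changed no member's direction or side of the test at an adjusted p of 0.05.

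The replicate letters do not pair the samples by the rule used: deviations of same-letter libraries correlated at 0.151, 0.073 and 0.128, though each library correlated best with its own letter, a hint from the data and not the design. With the replicate block, 1394 genes were lower and 28 higher, SRPK1 was at -0.73, and no call of a member at an adjusted p below 0.05 was lost on either scale; the TMM fits with the block or with a library left out were chosen after seeing the data. All 8 pair ratios kept their direction in every alternative run. Paired by letter, each of the 8 had an exact sign-flip p of 0.25, the smallest that 3 pairs of libraries allow.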
